A study of Mus musculus with 6 samples.

Results

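The major histocompatibility complex (MHC) genes of the mouse, named H2, were followed through the cell types of the kidney glomerulus together with genes that supply MHC molecules with peptides or switch them on. The genes were every name that begins with H2-, leaving out 4 names that carry -ps, plus B2m, Tap1, Tap2, Tapbp, Cd74, Psmb8, Psmb9, Psmb10, Nlrc5 and Ciita. This gave 51 of the 49492 gene names in the count tables. In the GENCODE annotation of GRCm38, 46 of the 51 lie on chromosome 17, and 44 are protein coding. H2-Bl, H2-Q5 and H2-T10 are polymorphic pseudogenes, H2-K2 is a transcribed unprocessed pseudogene, and H2-Pa, H2-Pb and H2-Q3 are unprocessed pseudogenes. H2-Ke6 is named for its place in the region and is not an MHC molecule.

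Glomeruli, the filtering units of the kidney, came from male CD1 mice aged 8 weeks, an outbred stock whose animals need not carry the same MHC alleles. Drop-seq, which tags each captured mRNA with a unique molecular identifier (UMI) and each cell with a barcode, was run on 4 libraries of dissociated glomerular cells fixed in 80% methanol. Bulk mRNA sequencing was run on 1 library of live, unfixed whole glomeruli from 500 ng of total RNA, and on 1 library of sorted cells of dissociated glomeruli fixed in 80% methanol, from 95 ng. There was no treatment and no genotype group, and the labels do not say that the libraries came from separate animals or how many animals went into each, so the p-values below measure only the spread between these libraries.

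The 4 Drop-seq libraries kept 13993 of 15465 barcodes, 2809 to 4099 cells in each, with median depths of 816 to 1156 UMIs. The bulk libraries held 28407317 (whole) and 24555632 (dissociated) reads on genes. Across Drop-seq, 44 of the 51 genes had at least 1 UMI, 35 to 41 in a library. In bulk, 41 genes had a read in whole glomeruli and 38 in dissociated cells. 15 barcodes stood in more than 1 Drop-seq library, 3 of them among the kept cells.

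MHC class I molecules are heavy chains (H2-D1 and H2-K1 are the classical ones) paired with beta-2-microglobulin, the product of B2m, and nearly all nucleated cells display on them peptides cut from their own proteins by the proteasome. TAP1 and TAP2 carry the peptides into the endoplasmic reticulum, tapasin (Tapbp) helps to load them, and Psmb8, Psmb9 and Psmb10 are the catalytic subunits of the immunoproteasome, which interferon gamma induces. Class II molecules (H2-A and H2-E, with the invariant chain Cd74 and the loading factors H2-DM and H2-O) display peptides of material taken up from outside, and in kidney they are known above all from resident macrophages and dendritic cells. Nlrc5 is the co-activator of class I genes and Ciita that of class II genes. Both act through proteins bound at the X and Y boxes just upstream of their target genes.

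Upstream sequence is shown for 5 genes that carry the results below: B2m and H2-K1, highest in endothelial-like cells among the 5 larger types, H2-Q6 and H2-Q7, which differ between libraries, and H2-Aa, a class II gene. Each line is part of the 250 bases before the RefSeq start (GRCm38.p6), 5′ to 3′ on the gene's own strand. Capitals mark matches on either strand to ATTGG (the CCAAT or Y box), TGACG (the core of the X2 box), TTTC and TTTC parted by any 2 bases (the core of the interferon-stimulated response element), and to the NF-kB site of the class I enhancer A, which is the first run of capitals in the H2-K1 and H2-Q6 lines.
B2m: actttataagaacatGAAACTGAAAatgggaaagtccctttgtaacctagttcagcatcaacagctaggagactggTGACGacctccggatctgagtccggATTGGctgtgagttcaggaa
H2-K1: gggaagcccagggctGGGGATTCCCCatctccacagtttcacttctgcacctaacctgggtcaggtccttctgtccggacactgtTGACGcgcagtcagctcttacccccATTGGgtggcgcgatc
H2-Q6: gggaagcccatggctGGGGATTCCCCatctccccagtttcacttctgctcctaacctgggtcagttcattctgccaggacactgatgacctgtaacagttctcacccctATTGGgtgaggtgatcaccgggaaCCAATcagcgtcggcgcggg
H2-Q7: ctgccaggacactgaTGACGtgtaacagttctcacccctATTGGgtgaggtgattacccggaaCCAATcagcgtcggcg
H2-Aa: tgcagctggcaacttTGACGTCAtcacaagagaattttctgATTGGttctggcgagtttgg
The windows lie at chr2:122147533-122147653 (B2m, + strand), chr17:34000348-34000473 (H2-K1, - strand), chr17:35424662-35424814 (H2-Q6, + strand), chr17:35439076-35439154 (H2-Q7, + strand) and chr17:34287852-34287912 (H2-Aa, - strand), each outside the GENCODE gene. RefSeq promoters were found for 37 of the 51 genes. ATTGG was present in 32 of the 37, against 34.3% of the promoters of 27025 genes, and TGACG in 15 of the 37, against 17.7%. The interferon-stimulated response element core was in 3 of the 37 (B2m, H2-T22 and H2-T23), against 3.01%. The enhancer A site was in 3 of the 37 (H2-D1, H2-K1 and H2-Q6), and in 8 of all 27025 genes (0.0296%). A shorter interferon element (TTTC and TTC parted by any 2 bases), which overlaps the longer one and was added after the sequences were seen, was in 8 of the 37, among them H2-K1, H2-D1, H2-Q6 and H2-Q7, against 6.43%. The windows of H2-Q6 and H2-Q7 both hold ATTGG on each strand. Between these 2 genes an exact enhancer A site was found for H2-Q6 alone and an exact TGACG for H2-Q7 alone. The H2-Q7 window shown starts at -79, so it does not reach the place of the enhancer A site. Further upstream H2-Q7 reads ggggattccca there, and H2-Q6 reads tgacc in the place of TGACG. Such near matches are not counted in an exact search. These are matches of letters, not measured binding sites.

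Cells were clustered without any of the 51 genes and named from marker genes. This gave 10406 podocyte-like cells, 1854 endothelial-like cells, 330 mural-like cells (mesangial, smooth muscle and renin cell markers together), 373 parietal epithelial-like cells, 955 tubular-like cells and 75 immune-like cells. In 4 of the types the type's own marker list held the largest share of UMIs. Immune-like cells carried 0.574% of their UMIs on immune markers and 0.930% on podocyte markers, and 47 of the 75 had a UMI of an immune marker. Parietal epithelial-like cells carried 1.40% of their UMIs on podocyte markers, where podocyte-like cells carried 2.17% and endothelial-like cells 0.438%, and 0.0435% on parietal epithelial markers. Markers of more than 1 type were found in 27.9% of parietal epithelial-like cells and in 7.52% of all cells, and the part of mixed cells in the values below was tested only by leaving those cells out. Of the 51 genes, 14 had enough UMIs to be tested across 5 cell types (284 to 23797 UMIs each) and 6 more in a fit that added immune-like cells (154 to 356 UMIs). The other 24 detected genes held 1 to 323 UMIs and were not tested. Counts of near-identical copies are uncertain: of the 50-base stretches of H2-T22, 44.7% occur in other annotated genes, of H2-Q4 24.3%, of H2-Q1 22.9%, of H2-D1 14.3% and of H2-K1 8.79%, and none of B2m, Psmb8 or Psmb10. In the last 300 bases of the transcript, where Drop-seq reads fall, the shares are 49.4%, 45.4%, 21.5%, 17.1% and 0.797% for the same 5 genes. Levels are given as counts per 1000000 UMIs (CPM), each library's cells of a type being summed first, and log2 folds compare a type with the mean of the other 4 types.

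B2m and the classical heavy chains H2-D1 and H2-K1 stood highest in endothelial-like cells among the 5 tested types. B2m, the shared light chain (chr2:122147686-122153083), was at 3445, 3983, 2806 and 3509 CPM in endothelial-like cells of replicates 1 to 4. In podocyte-like cells B2m was at 520.1, 582, 521 and 329 CPM. The lowest endothelial-like value lay above every value of the podocyte-, mural-, parietal epithelial- and tubular-like cells, whose B2m means were 488 ± 110 CPM, 642 ± 193 CPM, 779 ± 129 CPM and 299.9 ± 88.5 CPM (SD, n = 4). The log2 fold of endothelial-like cells was 2.72 (SE 0.08), with an adjusted p of 2.26e-47 by edgeR's quasi-likelihood test. After each cell was thinned to 500 UMIs, B2m was found in 76.0% ± 7.14 of endothelial-like cells (81.1% before thinning) and in 19.2% ± 3.11 of podocyte-like cells (36.1% before thinning, SD, n = 4). Thinning left out 378 endothelial-like and 652 podocyte-like cells, whose types had median depths of 640.5 and 1016.5 UMIs. The shares before thinning include those cells.

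The classical heavy chains followed the same order of types at the top and bottom. H2-D1 (chr17:35262730-35267499) was at 3405, 3788, 2789.7 and 3184 CPM in endothelial-like cells, above all values of the other 4 tested types. Its means were 1646 ± 327 CPM in parietal epithelial-like, 1325 ± 264 CPM in podocyte-like, 353 ± 107 CPM in tubular-like and 761 ± 349 CPM in mural-like cells (SD, n = 4). H2-K1 (chr17:33996017-34000347) was at 1119, 1773, 916 and 1087 CPM in endothelial-like cells, against means of 448 ± 143 CPM in podocyte-like and 215 ± 64.9 CPM in tubular-like cells (SD, n = 4). The log2 folds of endothelial-like cells were 1.92 (SE 0.08) for H2-D1 and 1.59 (SE 0.09) for H2-K1, and both were higher in 4 of 4 libraries. For H2-K1 the ranges overlapped at the top. Parietal epithelial-like cells (650 ± 241 CPM) reached 966 CPM in replicate 2, above endothelial-like cells of replicate 3 (916 CPM). Within each library the endothelial-like value was the higher. Neighbouring types in the middle of the order were not separated for every gene: the H2-K1 values of podocyte-like and mural-like cells (423 ± 105 CPM) overlapped, as did the H2-D1 values of podocyte-like and parietal epithelial-like cells.

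**Figure D1:**
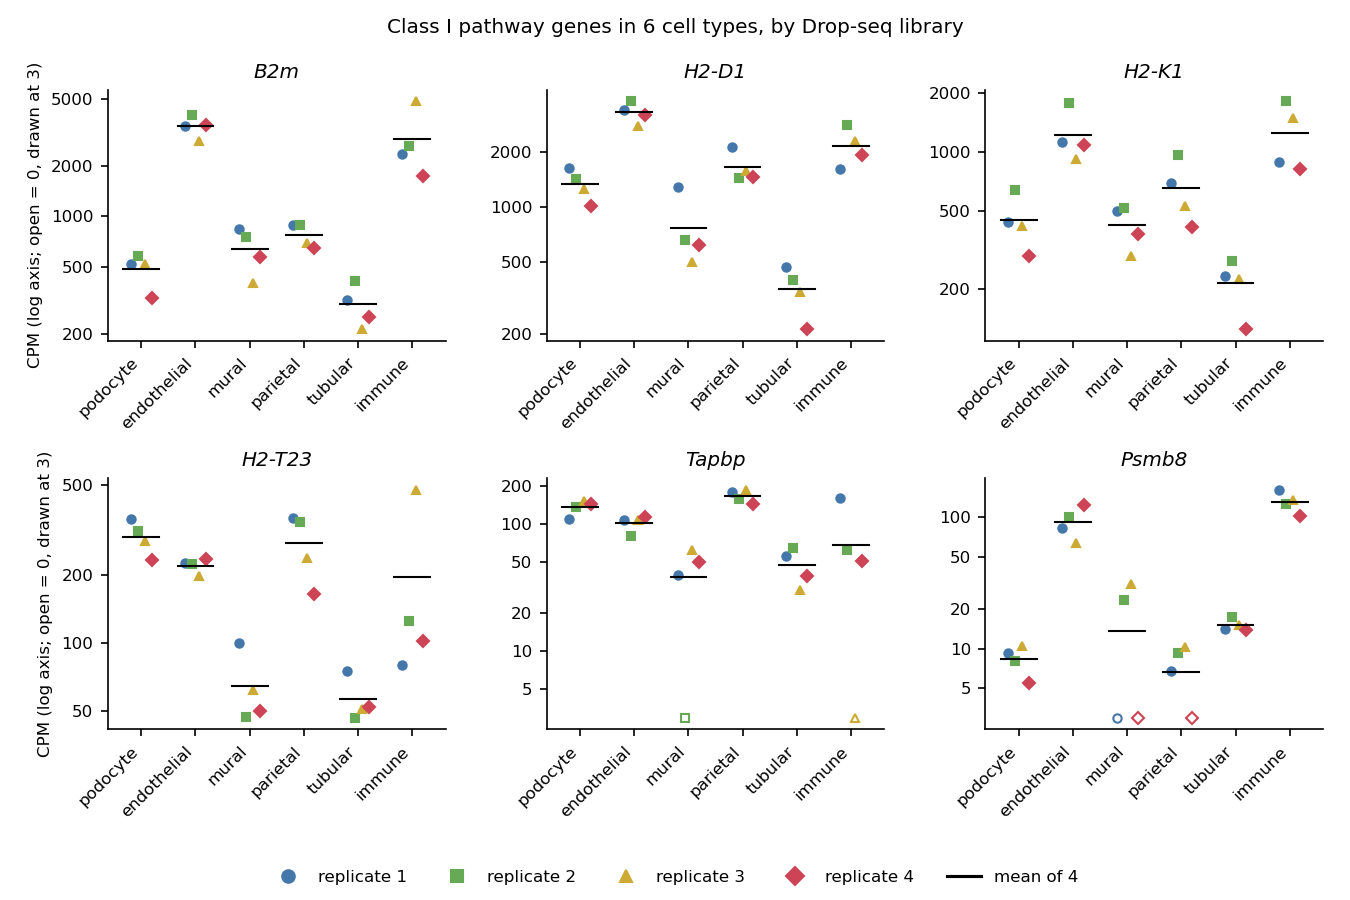
Level of 6 class I pathway genes (CPM, log axis) in each of 6 cell types. Points are the 4 Drop-seq libraries, bars are their means, and open points are libraries with 0 UMIs. B2m, H2-D1 and H2-K1 stand highest among the 5 larger types in endothelial-like cells, Psmb8 likewise, while H2-T23 and Tapbp are as high in podocyte- and parietal epithelial-like cells.

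In all, 10 of the 14 tested genes were higher in endothelial-like cells and 0 were lower. Over all 7580 genes tested, 27.5% were higher and 22% lower. At an unadjusted p under 0.05, 1 gene (H2-Q1) was lower by edgeR and 0 by DESeq2. Psmb8, an immunoproteasome subunit (chr17:34197721-34201454), had the largest log2 fold of the 14, 3.22 (SE 0.30), with 81.7, 99.6, 63.5 and 124 CPM in endothelial-like cells against 8.36 ± 2.17 CPM in podocyte-like cells (SD, n = 4). Psmb10, its partner subunit, was at 55.9 ± 13.4 CPM in endothelial-like and 14.9 ± 3.49 CPM in podocyte-like cells, and its log2 fold in endothelial-like cells was 1.32 (SE 0.28). Tap2, one chain of the peptide transporter, was at 55.5 ± 24.4 CPM in endothelial-like and 21.96 ± 2.09 CPM in podocyte-like cells, with a log2 fold of 1.24 (SE 0.28). The nonclassical heavy chains H2-Q4, H2-T22 and H2-T23 were higher as well, with log2 folds of 1.19, 1.04 and 0.74, and so was the pseudogene H2-K2 (1.74). The direction for H2-T23 turned when the other cells were weighted by number: the fold was -0.20 (adjusted p = 0.153) against all other cells summed, most of which are podocyte-like. Without replicate 4 the fold of H2-T22 was 0.71 (adjusted p = 0.168). Tapbp (0.29), H2-Q6 (0.23), H2-Q7 (-0.33) and H2-Q1 (-0.74) did not pass the threshold in endothelial-like cells.

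3 genes of the same machinery were too sparse for this fit, and their values are given without a test. Psmb9, the remaining immunoproteasome subunit, was at 43.8 ± 13.9 CPM in endothelial-like cells and 11.3 ± 5.14 CPM in podocyte-like cells (SD, n = 4). Tap1, the other transporter chain, was at 17.7 ± 8.76 CPM and 3.36 ± 1.28 CPM. Nlrc5 held 21 UMIs in all, 9 of them in endothelial-like cells (5.97 ± 1.82 CPM) and 8 in podocyte-like cells (0.679 ± 0.573 CPM). For Psmb9 each endothelial-like library lay above every podocyte-like one. Tap1 and Nlrc5 did so too, but some libraries were at or below the floor of 3 UMIs. Endothelial-like cells of replicate 1 held 2 UMIs of Tap1 (5.64 CPM, against up to 5.07 CPM in a podocyte-like library). For Nlrc5 the endothelial-like cells of replicates 1 to 4 held 2, 1, 3 and 3 UMIs. At such counts the order of single libraries says little.

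Podocyte-like cells, the filtration epithelium, were higher for 7 of the 14 genes and lower for 4, while 25.3% and 20.8% of all tested genes were higher and lower. H2-T23 (chr17:36029773-36032855), which encodes the nonclassical Qa-1 heavy chain, was at 353, 311, 282 and 233 CPM in podocyte-like cells and at 219.6 ± 16.0 CPM in endothelial-like, 56.5 ± 12.9 CPM in tubular-like and 64.8 ± 24.1 CPM in mural-like cells (SD, n = 4). Its log2 fold in podocyte-like cells was 1.23 (SE 0.11, edgeR adjusted p = 1.70e-17), and its lowest podocyte-like value lay just below the highest endothelial-like one (234 CPM). Of its 50-base stretches 28.8% also occur in other annotated genes, H2-T-ps first among them. In the last 300 bases of the transcript, where Drop-seq reads fall, the share is 50.6%. The counts of H2-T23 could therefore be split by the authors' counting. Tapbp (chr17:33915899-33929292) was at 110, 136, 152 and 144 CPM in the podocyte-like cells and at 102 ± 14.5 CPM in the endothelial-like cells, with a log2 fold of 0.74 (SE 0.14) in podocyte-like cells. H2-D1 (0.22), H2-K2 (0.60) and H2-Q1 (0.50) passed the threshold with smaller folds. For H2-D1 the fold was -0.12 with a mitochondrial limit of 10% and -0.24 against all other cells summed, and it was not called by DESeq2 (0.12, adjusted p = 0.486) or with no replicate block (0.22, adjusted p = 0.248). Each of these 3 lost the call when 1 library was left out: H2-D1 without replicate 2 or 3 (adjusted p = 0.0658 and 0.123), H2-K2 without replicate 1, 2 or 3 (0.135, 0.198 and 0.0733) and H2-Q1 without replicate 2 or 4 (0.0931 and 0.258). H2-Q6 and H2-Q7 were also called and are described by library below. The 4 genes lower in podocyte-like cells were B2m (log2 fold -0.85), Psmb10 (-1.11), Psmb8 (-1.11) and H2-K1 (-0.27). Psmb8 lost its call without replicate 2 or 3 (adjusted p = 0.192 and 0.282), and H2-K1 without replicate 1 or 4 (0.0680 and 0.142).

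In parietal epithelial-like cells, which line the capsule around the capillary tuft, 4 of the 14 genes were higher and 0 lower. The shares over all genes were 9.06% and 6.98%. At an unadjusted p under 0.05, 2 genes were lower by edgeR and 1 by DESeq2. Tapbp was at 177, 158, 186 and 144 CPM, a log2 fold of 0.96 (SE 0.23), and H2-T23 at 355, 344, 237 and 164 CPM, a log2 fold of 0.95 (SE 0.18). H2-D1 was higher by 0.44 (SE 0.10). H2-Q7 was higher by 1.51, but without replicate 4 this was 0.89 with an edgeR adjusted p of 0.351. The podocyte markers in these cells (1.23% to 1.71% of UMIs by library) stand beside these values, and their part in them was not tested beyond leaving out the cells with markers of more than 1 type.

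Mural-like and tubular-like cells had the lowest median log2 folds of the 14 genes, but not the lowest level of each gene. B2m had a mean of 642 CPM in mural-like and 488 CPM in podocyte-like cells, and Psmb8 15.1 CPM in tubular-like and 8.36 CPM in podocyte-like cells. The mean of the other 4 types, to which each fold refers, includes the endothelial-like cells. In mural-like cells 6 of the 14 genes were lower and 1 higher, against 8.31% and 12.2% of all genes: H2-Q7 (log2 fold -2.26), H2-T23 (-1.51), H2-Q6 (-1.45), Tapbp (-1.43), H2-D1 (-0.84) and B2m (-0.42) were lower. The single higher gene was H2-Q1, a heavy chain of the Q cluster (chr17:35320405-35325099), with a log2 fold of 2.13 (SE 0.39, edgeR adjusted p = 7.58e-06). It was at 219 CPM in mural-like cells of replicate 1 and at 47.2, 46.6 and 30.2 CPM in replicates 2 to 4, on 30 UMIs in all. Without replicate 1 the log2 fold of H2-Q1 was 1.41 (adjusted p = 0.166), so the call rests on that library. B2m lost its call in mural-like cells without replicate 3 (adjusted p = 0.0916). In tubular-like cells 10 of the 14 genes were lower and 0 higher, against 23.2% and 29.8% of all genes. No gene was higher there at an unadjusted p under 0.05 by edgeR, and DESeq2 also called 0. The falls ran from H2-Q1 (-2.15), H2-Q4 (-1.94), H2-D1 (-1.74) and H2-K2 (-1.72) to H2-K1 (-1.18), H2-Q7 (-1.13) and Tapbp (-0.55). Tapbp lost its call there without replicate 3 or 4 (adjusted p = 0.0943 and 0.0583) and H2-Q6 without replicate 4 (0.0928). Psmb8, Psmb10, Tap2 and H2-T22 did not pass in tubular-like cells, with log2 folds of 0.43, 0.27, -0.30 and 0.26. The median log2 fold of the 14 genes was 1.21 in endothelial-like, 0.21 in podocyte-like, 0.35 in parietal epithelial-like, -1.23 in tubular-like and -0.63 in mural-like cells, with medians over all genes between -0.09 and 0.04.

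**Figure D2:**
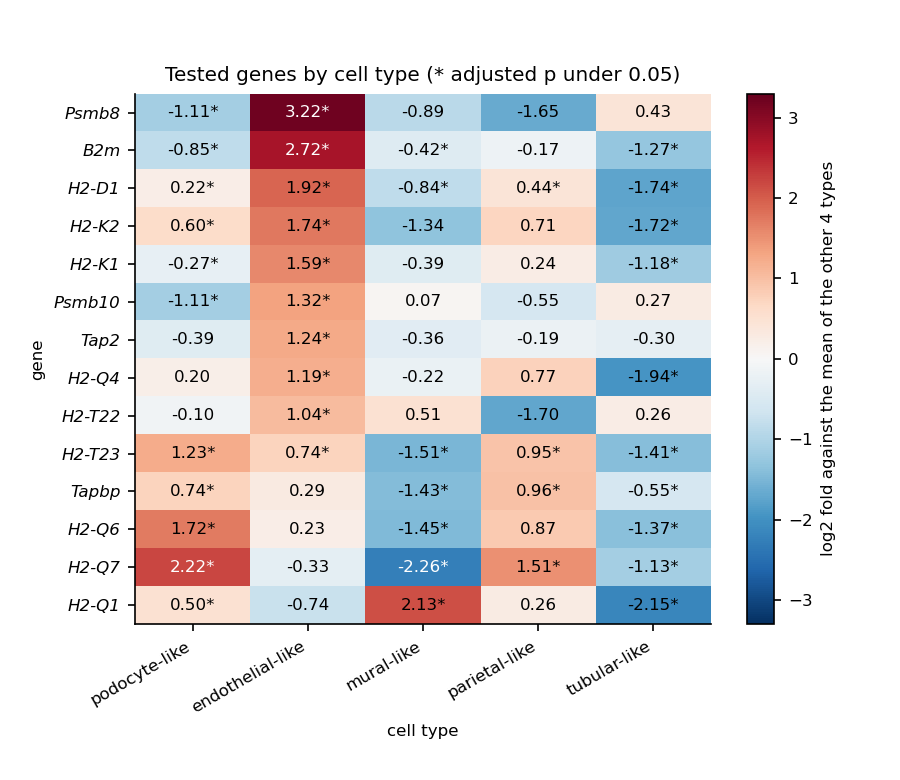
Log2 fold of each of the 14 tested genes in each of 5 cell types against the mean of the other 4 types, in rows ordered by the endothelial-like fold. Stars mark edgeR adjusted p under 0.05. The endothelial-like column is red from Psmb8 (3.22) down to H2-T23 (0.74), the tubular-like column is blue for 10 genes, and H2-Q7 and H2-Q6 have their largest folds in podocyte-like cells.

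Most class II transcripts lay in the 75 immune-like cells. Cd74, the invariant chain, was at 5702, 3806, 5558 and 3508 CPM there and at 0.312, 0.921, 0 and 6.17 CPM in podocyte-like cells. H2-Aa (chr17:34282744-34287823), the alpha chain of H2-A, was at 5060, 4492, 4744 and 2288 CPM, H2-Ab1, its beta chain, at 4096, 3868, 4270 and 1271 CPM, and H2-Eb1, the beta chain of H2-E, at 1205, 2558, 2643 and 1525 CPM in immune-like cells. Every other type was lower in every library: the highest value was 94.3 CPM, for Cd74 in mural-like cells of replicate 2. Of all UMIs of these 4 genes, 83.97% (859) were in immune-like cells, 57 in podocyte-like, 52 in endothelial-like, 45 in tubular-like, 3 in parietal epithelial-like and 7 in mural-like cells. A single tubular-like cell held 39 of the 45 and a single podocyte-like cell 22 of the 57. The parietal epithelial-like cells held no UMI of H2-Aa (0 UMIs, where the floor of 3 UMIs is 6.69 CPM).

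In the fit with immune-like cells, 8 of 20 genes were higher there and 0 lower, against 2.64% and 5.96% of all 6020 genes. Cd74, H2-Aa, H2-Ab1 and H2-Eb1 had 79.5% to 91.9% of their UMIs in immune-like cells and entered a fit only through them, so their 4 calls were fixed by the filter and the count of 8 supports nothing about the genes. By edgeR 0 were lower at an unadjusted p under 0.05, and DESeq2 called 0 lower. The other 4 were H2-DMb1, Psmb8, B2m and H2-K1. H2-DMb1 also passed the low-count filter only in the fit that added immune-like cells, where it held 15 UMIs. Its call therefore supports nothing about the gene either. The fitted folds of the 4 class II genes depend on sums at or near 0 in other types and are not printed as sizes. H2-DMb1, a chain of the class II peptide loader, was at 243 ± 94.9 CPM in immune-like cells (log2 fold 4.04, SE 0.63). Psmb8 was at 131 ± 24.5 CPM (log2 fold 2.45), B2m at 2873 ± 1345 CPM (1.27) and H2-K1 at 1249 ± 482 CPM (0.69, SD, n = 4). The call for H2-K1 was lost without replicate 2 or 3 (adjusted p = 0.168 and 0.137), and that for Psmb8 without any 1 of the 4 libraries (0.0552 to 0.106). For B2m the ranges of immune-like (1729 to 4812 CPM) and endothelial-like cells overlapped.

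The immune-like cells were not alike in class II. The 31 cells with macrophage markers and no T, NK or B cell markers held 24023 CPM of the 4 class II genes summed (95% Poisson interval 22060.5 to 26113), and 22 of them had a class II UMI. The 6 cells with T and NK markers held 10635.5 CPM, with class II UMIs in 1 of the 6 cells. The single cell with B cell markers held 13 class II UMIs. The 37 cells with none of these markers held 6759 CPM, with class II UMIs in 6 cells. Only 9 of the 37 had a UMI of any immune marker, so these cells may not all be immune cells. At least 2 of the 4 genes were seen together in 25 immune-like cells, and all 25 also had a UMI of an immune marker. Thinned to 500 UMIs, 43.1% ± 6.87 of immune-like cells had a Cd74 UMI (37.3% before thinning) and 0.0439% of podocyte-like cells did (0.0673% before thinning, SD, n = 4). The thinned shares cover only cells with at least 500 UMIs and the shares before thinning all cells, so the 2 cannot be compared directly. These intervals cover counting error only.

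**Figure D3:**
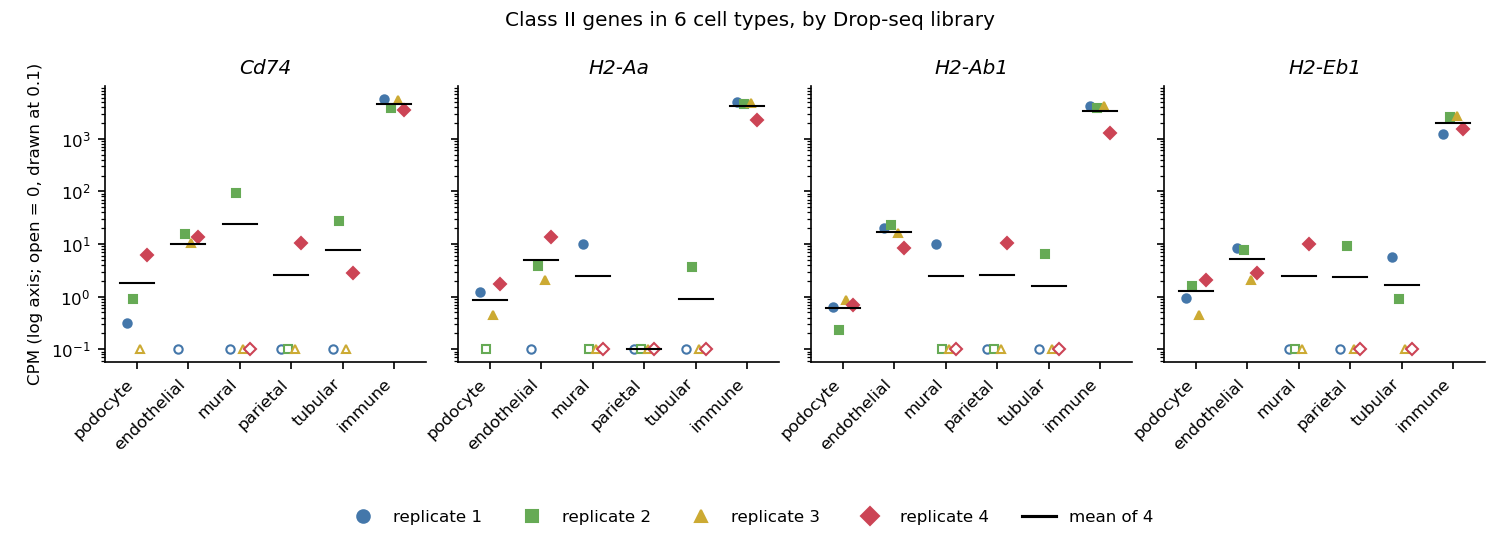
Level of the class II genes Cd74, H2-Aa, H2-Ab1 and H2-Eb1 (CPM, log axis) in 6 cell types. Points are the 4 Drop-seq libraries, bars their means, and open points stand for 0 UMIs, drawn at 0.1. Immune-like cells lie between 1205 and 5702 CPM, and the highest point of any other type is 94.3 CPM.

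Other class II genes did not all follow the immune-like cells. H2-DMb1 had 261 of its 303 UMIs in podocyte-like cells, at 23.1, 17.5, 17.6 and 24.3 CPM, and in parietal epithelial-like cells it was at 26.3 ± 19.1 CPM. In endothelial-like cells it was at 3.32 ± 3.93 CPM (SD, n = 4), below every podocyte-like library. Of its 50-base stretches 27.2% are shared with H2-DMb2, none of them in the last 300 bases of the transcript, where Drop-seq reads fall. H2-DMa, the partner chain, held 42 UMIs, 33 of them in podocyte-like cells (2.68 ± 0.566 CPM) and 6 in immune-like cells (105 ± 71.8 CPM). H2-DMb2 held 22 UMIs, H2-Ob 5, H2-Oa 2, Ciita 2 and H2-Eb2 1, too few to compare.

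The nonclassical class I genes that stayed untested are given by level. H2-T24 (chr17:36005695-36020560) held 88 UMIs, at 39.5, 15.3, 34.8 and 24.8 CPM in endothelial-like cells and at most 4.05 CPM in a podocyte-like library, so the 2 types did not overlap. H2-Q10 was at 28.7 ± 12.9 CPM in endothelial-like and 11.1 ± 1.84 CPM in podocyte-like cells, and H2-M3, which presents N-formylated peptides, at 16.4 ± 2.83 CPM and 8.24 ± 2.01 CPM (SD, n = 4). For H2-Q10 and H2-M3 too, each endothelial-like library lay above every podocyte-like one. H2-Q2 (20.1 ± 7.36 CPM in the podocyte-like cells and 16.97 ± 9.11 CPM in the endothelial-like), H2-Bl (11.2 ± 6.07 CPM and 12.1 ± 8.94 CPM) and H2-T10 (9.87 ± 5.17 CPM and 16.2 ± 6.07 CPM) overlapped between these types. H2-T3 held 54 UMIs and H2-Ke6 23. The genes H2-M2 (7 UMIs), H2-M5 (3) and H2-M9, H2-M10.2, H2-M10.5 and H2-M11 (1 each), and the pseudogene H2-Q3 (4), were close to or at the floor of 3 UMIs.

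H2-Q6 and H2-Q7, neighbouring class I genes of the Q cluster (chr17:35424850-35430055 and chr17:35439155-35443773), were set apart by replicate 4. In podocyte-like cells H2-Q6 was at 29.9, 29.7, 23.3 and 998 CPM in replicates 1 to 4, and H2-Q7 at 70.1, 41.7, 44.9 and 1495 CPM. H2-Q5, a pseudogene of the same cluster, was at 1.25, 0.461, 0 and 33.9 CPM. Replicates 1 to 3 lay close together, and replicate 4 was 36.1 times their mean for H2-Q6 and 28.6 times for H2-Q7. Among 9087 genes with at least 100 UMIs in podocyte-like cells, H2-Q6 and H2-Q7 ranked 2 and 3 by this ratio in replicate 4. Rank 1 was H2-Q5, which reached 100 UMIs only through replicate 4 (99 of 105 UMIs, 6 in the other 3 libraries), so its rank is set by that filter. No other gene was past 5-fold. Of the 22 MHC and antigen presentation genes in that ranking, 3 (H2-Q5 among them) were past 2-fold higher in replicate 4 (0.22% of all genes) and 2 past 2-fold lower (0.407%), H2-K2 at 0.254 times and Psmb9 at 0.443 times the mean of the others. The rest lay within 2-fold of the other libraries, on both sides. H2-K1 was at 0.588 times (rank 8997 of 9087), Psmb8 at 0.588 (8995), Psmb10 at 0.601 (8978), B2m at 0.609 (8969) and H2-D1 at 0.703 (8794). H2-Bl, H2-T10, H2-Q2, H2-Q1, H2-T23 and Tap2 lay below too (0.508 to 0.957 times). H2-Q4, of the same cluster, was at 1.47 times (rank 224). H2-T22 (1.27), H2-DMb1 (1.25), H2-M3 (1.23), Tapbp (1.08) and H2-Q10 (1.07) lay above as well.

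Replicate 4 was the highest library for both genes in every other cell type too. The UMIs of H2-Q6 and H2-Q7 summed were 31.2 times as frequent in replicate 4 as in the pooled replicates 1 to 3 in podocyte-like cells, 23.3 times in tubular-like, 19.8 times in parietal epithelial-like, 11.98 times in mural-like and 4.92 times in endothelial-like cells. In immune-like cells the ratio was 14.3, on 6 UMIs in replicates 1 to 3. In endothelial-like cells H2-Q6 was at 42.3, 53.6, 38.9 and 184 CPM. By subcluster (described below), replicate 4 was at 665 CPM in the endothelial-like cells with podocyte markers, where replicates 1 to 3 reached at most 55.1 CPM. In those with arterial markers it was at 239 CPM, against at most 189 CPM. In the largest subcluster it was at 92.0 against 41.4 CPM, and in the one of 366 cells at 64.0 against 50.1 CPM. Without replicate 4, H2-Q6 was higher in endothelial-like cells (log2 fold 1.72, SE 0.41, adjusted p = 0.000248), a call it did not reach with all 4 libraries, and in podocyte-like cells it fell short of the threshold (0.84, adjusted p = 0.0555). H2-Q7 stayed higher in podocyte-like cells without replicate 4 (1.53, SE 0.27, adjusted p = 1.62e-06), in mural-like cells its log2 fold was then -1.08 (adjusted p = 0.478), and that of H2-Q6 was -2.45 (adjusted p = 0.145).

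Within replicate 4 the 2 genes were not spread evenly over cells. Of its 334 podocyte-like cells with at least 2000 UMIs, 55 held no UMI of H2-Q6 or H2-Q7 (16.5%). A Poisson count at each cell's own depth gives 0.243%, with the rate taken from all podocyte-like cells of the library. Of the rest, 49 held 1 to 2, 47 held 3 to 5, 105 held 6 to 11 and 78 held 12 or more. For H2-D1 in the same cells 14.1% held none, against 7.83% from a Poisson count made in the same way. In replicates 1 to 3, 158 of 216, 436 of 538 and 195 of 239 such cells held no H2-Q6 or H2-Q7 UMI. H2-Q6 shares 32.0% of its 50-base stretches with other annotated genes (13.9% with H2-Q7) and H2-Q7 34.9% (19.3% with H2-Q6), while in the last 300 bases the shares with any gene are 40.2% and 0%. Whether reads of these copies were split in counting was not tested.

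**Figure D4:**
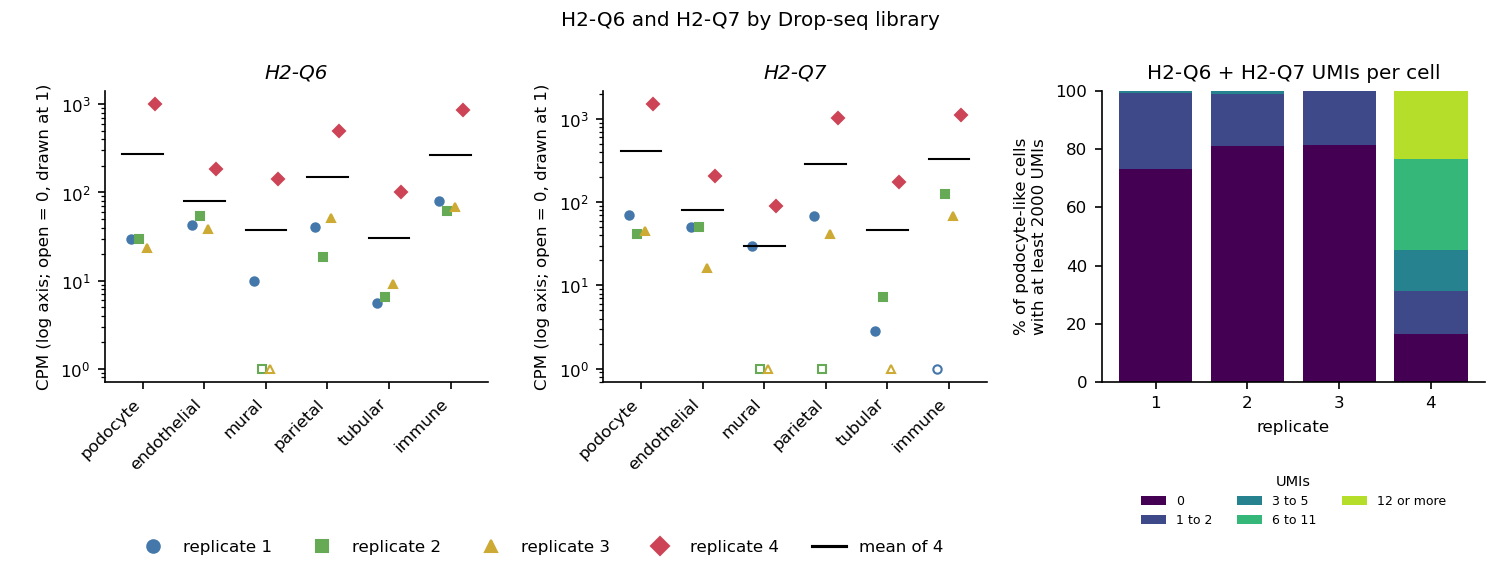
Left and middle, level of H2-Q6 and H2-Q7 (CPM, log axis) in 6 cell types by library, with replicate 4 as the highest point in every type (998 and 1495 CPM in podocyte-like cells). Right, share of podocyte-like cells with at least 2000 UMIs by the number of H2-Q6 and H2-Q7 UMIs they hold, where 78 of 334 cells of replicate 4 hold 12 or more and no cell of replicates 1 to 3 does.

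Single libraries also stood apart for other genes. In podocyte-like cells H2-K2 was at 42.1, 94.0, 21.6 and 13.4 CPM, 3.66 times the mean of the others in replicate 2, rank 2 among all genes ranked there. H2-Bl, H2-Q1 and H2-T10 were past 2-fold higher in replicate 1 (0.385% of all genes) and H2-T22 past 2-fold lower there (0.836%). H2-Q5, H2-Q6 and H2-Q7 were past 2-fold lower in each of replicates 1 to 3, and H2-K2 in replicate 3 (3 and 4 genes in replicates 2 and 3, 0.627% and 0.638% of all genes). Since the mean of the others there includes the high library, these restate the values above and are no separate result. Past 2-fold higher were 1 gene in replicate 2, H2-K2 (0.198%), and 0 in replicate 3 (0.176%).

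Endothelial-like cells were split into 4 subclusters, again without the 51 genes. The smallest (162 cells) was led by Mgp, Igf2, Fbln5 and Jag1 and carried arterial markers on 0.296% of its UMIs. These markers held 0.190% in a subcluster of 366 cells and 0.0807% in the largest. Of the arterial markers only Fbln5 was among the 10 leading genes of the smallest. The largest (1119 cells) carried capillary markers on 0.586%. Another, of 207 cells, carried podocyte markers on 1.56% of its UMIs against 0.161% to 0.181% in the other 3. In the subcluster with arterial markers 6 of 7 tested genes were higher and 0 lower, against 11.4% and 5.77% of 1578 genes, and 0 were lower at an unadjusted p under 0.05 by edgeR or called by DESeq2. H2-K1 was at 2694, 3272, 1716 and 1961 CPM there and at 1230 ± 397 CPM in the largest subcluster, a log2 fold of 1.33 (SE 0.13) against the other subclusters. H2-D1 was at 5622 ± 1143 CPM against 3256 ± 364 CPM (log2 fold 1.04), and B2m at 5346 ± 1431 CPM against 3903 ± 416 CPM (1.10, SD, n = 4). Psmb8 (1.91), Tapbp (1.21) and H2-Q6 (1.32) were the other 3, and H2-T23 missed the threshold (0.76, adjusted p = 0.0520). The call of H2-Q6 was lost without replicate 1, 2 or 3 (adjusted p = 0.126, 0.172 and 0.0848) and that of Tapbp without replicate 1, 2 or 4 (0.126, 0.0548 and 0.0996). Without replicate 4, Psmb8 no longer passed the filter on low counts and was not tested in any subcluster. In the largest subcluster B2m was higher (0.39) and H2-Q6 (-1.36) and Tapbp (-0.86) were lower, 1 and 2 genes against 17.9% and 16.1% of all. The call of H2-Q6 there was lost without replicate 4 (adjusted p = 0.0513) and that of Tapbp without replicate 1 or 3 (0.0727 and 0.129). In the subcluster with podocyte markers B2m, H2-D1, H2-K1 and Psmb8 were lower and H2-T23 and H2-Q6 higher, 4 and 2 genes against 22.6% and 23.7%, and for H2-Q6 the log2 fold of 1.24 was -0.24 without replicate 4. H2-T23 lost its call there without replicate 1 or 3 (adjusted p = 0.134 and 0.0836). The remaining 366 cells had H2-T23 lower (-0.98, and -0.74 with an adjusted p of 0.0901 without replicate 3) and 0 genes higher (12.2% and 11.9% of all genes), with 0 higher at an unadjusted p under 0.05 and 0 by DESeq2. Without the cells that carried markers of more than 1 type the subcluster with podocyte markers could not be tested, and B2m, H2-D1, H2-K1 and H2-T23, the only genes then tested, were all higher in the subcluster with arterial markers.

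Of the other genes of the pathway, 13 interferon-response genes were tested, and 12 were higher and 0 lower in endothelial-like cells, where 27.5% of all genes were higher and 22% lower. Ifitm3, an antiviral membrane protein, was at 1590 ± 56.4 CPM there and at 8.47 ± 2.91 CPM in podocyte-like cells (SD, n = 4), a log2 fold of 4.83. The guanylate-binding protein Gbp4 (7.08), the GTPase Iigp1 (5.71) and Rtp4 (4.79) were among the others. Of 10 interferon receptor and signalling genes 7 were higher in endothelial-like cells, among them Stat2 (2.77), Irf9 (2.71), Socs1 (2.12) and Ifnar2 (1.30), and 1 was lower, Ifngr1, a chain of the interferon gamma receptor. Of 8 tested factors that act at MHC promoters 4 were higher (Creb1, Rela, Irf1 and Nfyb) and 0 lower. The costimulatory receptor Cd40 (6.25) and the adhesion molecule Icam1 (4.94) were higher too. In the other lists, of 8 peptide-loading genes 1 was higher (Pdia3) and 0 lower, of 6 standard proteasome genes 1 was higher (Psme1) and 1 lower (Psmb5), and of 5 class II processing genes 4 were lower (Ifi30, Lgmn, Ctsl and Ctsb) and 0 higher.

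In podocyte-like cells, where 25.3% of all genes were higher and 20.8% lower, 6 of 8 peptide-loading genes were higher, among them the trimming peptidases Erap1 (0.84) and Lnpep (0.72) and the chaperones Calr (0.59) and Hspa5 (0.54). Of the 10 interferon receptor and signalling genes, Ifngr1 (1.55) and Jak1 were among those higher, and 4 were lower (Stat2, Irf9, Socs1 and Ifngr2, the partner chain of Ifngr1). Of 13 interferon-response genes 6 were lower and 1 was higher. Of the remaining lists 1 gene each was higher in the proteasome list (Psmb7) and in class II processing (Ctsl), and 1 promoter factor (Nfyc) and Icam1 were lower. Fcgrt, the class I-like IgG receptor that also pairs with beta-2-microglobulin, was lower in podocyte-like cells (-4.48) and higher in mural-like (2.61), tubular-like (2.01) and endothelial-like cells (0.96).

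In tubular-like cells, where 29.8% of all genes were higher and 23.2% lower, 8 of 13 interferon-response genes, 4 of 10 receptor and signalling genes and 4 of 8 promoter factors, Irf1 (-1.68) among them, were lower. Of 5 class II processing genes 4 were higher, the lysosomal proteases Lgmn (2.19), Ctsd (1.93) and Ctsb (1.07) and the thiol reductase Ifi30 (2.06), and Ctsl was lower. Of 6 standard proteasome genes 4 were higher, as were Canx and Nfyc, and Icam1 was lower. In mural-like cells, where 12.2% of all genes were higher and 8.31% lower, 4 of 8 peptide-loading genes (Pdia3, Calr, Canx and Hspa5) and 3 of 5 class II processing genes (Ctsd, Ctsl and Ctsb) were lower, while 3 of 13 interferon-response genes (Ifitm3, Isg15 and Iigp1), the promoter factor Rfxap, Cd40 and Icam1 were higher. Ifitm2 and Ifngr1 were lower there. In parietal epithelial-like cells 5 genes of all lists were higher and 2 lower, with 9.06% and 6.98% of all genes.

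In bulk, with 1 library a group and so no test, dissociated cells were compared with whole glomeruli in CPM scaled by the trimmed mean of M values. Fewer cells of a type and less RNA per cell cannot be told apart in these libraries, and dissociation, sorting, fixation and RNA input differ together between them. Of 30 of the 51 genes with at least 100 reads, 4 were more than 2-fold higher in dissociated cells and 2 more than 2-fold lower, against 10.6% and 19.1% of 12692 genes. The 4 were Cd74 and the classical class II chains: Cd74 with 572 reads in whole glomeruli and 1112 in dissociated cells (log2 ratio 1.47), H2-Aa with 434 and 857 (1.49), H2-Ab1 with 343 and 540 (1.16) and H2-Eb1 with 155 and 345 (1.65). The other class II genes with at least 100 reads stayed within 2-fold, H2-DMa at 0.78, H2-DMb2 at 0.33 and H2-Ob at -0.82. Of the 23 immune markers 10 had 100 reads, 5 of them past 2-fold higher (Tyrobp, Laptm5, Coro1a, Cd52 and Lyz2) and 1 past 2-fold lower (Cd53), and the list summed to 108 CPM in whole glomeruli and 156 CPM in dissociated cells. The part of immune cells in the class II ratios was not tested.

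The 2 lower genes were H2-Q1 and H2-T24. H2-Q1 had 12512 reads in whole glomeruli and 224 in dissociated cells, 396 CPM (95% Poisson interval 389.6 to 403) and 10.1 CPM (8.85 to 11.6), a log2 ratio of -5.28. H2-T24 had 1793 and 237 reads (-2.40). In the same libraries the mural marker list summed to 4145 CPM in whole glomeruli and 659 CPM in dissociated cells, with 7 of 10 markers past 2-fold lower, and the capillary endothelial list to 9021 and 886 CPM, with 3 of 4 past 2-fold lower, most of that sum being Igfbp5 (6180.4 and 269 CPM). The general endothelial list summed to 12103 and 8561 CPM, with 8 of 12 past 2-fold lower and Cldn5 past 2-fold higher. In Drop-seq, which used dissociated cells, H2-Q1 had its highest mean in mural-like cells and H2-T24 in endothelial-like cells, and the part of cell loss in the bulk ratios was not tested. Genes higher in endothelial-like cells were not all lower in dissociated cells: B2m (0.25), H2-D1 (0.64) and H2-K1 (0.63) lay above 0, and the immunoproteasome genes Psmb9 (-0.96), Psmb10 (-0.74) and Psmb8 (-0.64), with Nlrc5 (-0.77), lay below 0 within 2-fold. The median log2 ratio of these 30 genes was 0.20, and that of all genes -0.02. Of the genes below 100 reads, Ciita had 65 and 14, H2-M5 39 and 0, and H2-Q3 18 and 0. Some pathway genes named above from Drop-seq, which used dissociated cells, also differed in bulk. Past 2-fold higher in dissociated cells were Lnpep (2.54), Irf1 (2.27), Ctsl (1.98), Icam1 (1.70), Rela (1.49), Hspa5 (1.27), Ifi30 (1.24), Psmb7 (1.17) and Socs1 (1.02). Past 2-fold lower were Fcgrt (-1.98), Cd40 (-1.20) and Creb1 (-1.08). The part of dissociation in their Drop-seq levels was not tested.

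**Figure D5:**
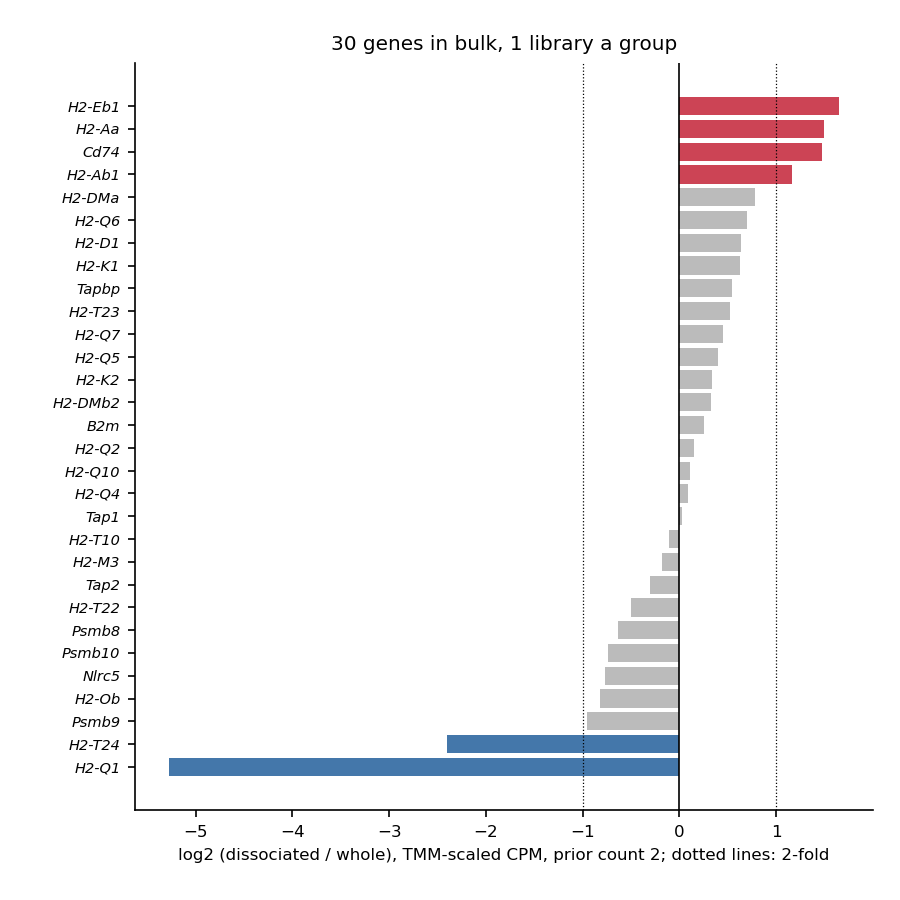
Log2 ratio of dissociated cells over whole glomeruli in bulk for the 30 genes with at least 100 reads, 1 library a group. Dotted lines mark 2-fold. Cd74, H2-Aa, H2-Ab1 and H2-Eb1 lie past 2-fold on the right, and H2-Q1 (-5.28) and H2-T24 (-2.40) on the left.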

How the data were processed

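Per the labels, the series measured dissociated glomerular cells by Drop-seq (4 libraries) and glomeruli by bulk mRNA sequencing (2 libraries) made with a stranded kit. The values deposited by the authors are whole-number counts: UMI counts per gene and barcode, and HTSeq read counts per gene. STAR and HTSeq are the tools that the submitters' processing notes name. Their versions, the genome build, the annotation and the strand setting are not given in the sources used here. In bulk, lines that name no gene (no feature 9.68% of reads in whole glomeruli and 6.14% in dissociated cells, ambiguous 3.77% and 3.87%, not unique 9.47% and 14.7%) were left out.

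Barcodes were kept from 300 genes upward if mitochondrial UMIs were at most 20%. Cells were clustered with scanpy 1.11.5 (2000 variable genes, 30 principal components, 15 neighbours, Leiden resolution 1, all 51 genes and the pathway lists held out) and named from marker lists. No doublet caller was run, and 1052 cells with markers of more than 1 type stayed in, with an alternative without them. 1 podocyte-like cluster of 22 cells had no podocyte marker among its 10 leading genes. UMIs were summed per library and type (at least 20 cells in at least 3 libraries, 5 cells for immune-like) and tested with edgeR 4.0.16 on R 4.3.3 (quasi-likelihood, TMM, library as a block, Benjamini-Hochberg over all genes, threshold 0.05). All types of a library come from 1 cell suspension, which is why the library was a block. The deviations of types in the same library had a median correlation of 0.12 and those of types in different libraries one of -0.04. DESeq2 1.42.0 was an alternative. The edgeR fit was also run on simulated counts in which libraries differed only in depth and sampling noise. That run cannot show how the fit handles the differences between these libraries. Library pairs differed by more than sampling noise (chi-square per degree of freedom 3.34 to 7.01), so no library was a duplicate of another. This does not show that they come from separate animals. Bulk CPM were TMM-scaled with a prior count of 2. Intervals are 95% exact Poisson and cover counting error only. The floor is 3 UMIs.

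The genes, pathway lists and tests were chosen with earlier results of these data known. All tested members are described. Pathway genes are named by rule: up to 4 per list, type and direction with the largest log2 fold past the threshold and the same direction in 4 of 4 libraries. The 4 Drop-seq tables and both bulk tables were compared only within their own assay. Promoters are from RefSeq (GRCm38.p6) and gene positions and 50-base sharing from GENCODE (GRCm38), which may differ from the authors' annotation.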

Additional observations from a re-analysis of the deposited data

Results flagged for a closer look

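Of 90 groups of 4 libraries (1 tested gene in 1 cell type), 19 had 1 library far from the other 3, a gap to the nearest of them above Dixon's 95% critical value. For independent groups of normal values chance alone would mark about 1 group in 20. That share does not hold for these counts. A group with UMIs in only 1 library is always marked, and groups that share a library are not independent. In 10 of the 19 the high library was replicate 4 for H2-Q6 or H2-Q7: H2-Q6 was at 998 CPM in podocyte-like, 184 CPM in endothelial-like, 141 CPM in mural-like, 493 CPM in parietal epithelial-like, 102 CPM in tubular-like and 864 CPM in immune-like cells, and H2-Q7 at 1495 CPM in podocyte-like, 1027 CPM in parietal epithelial-like, 174 CPM in tubular-like and 1119 CPM in immune-like cells. H2-Q1 in mural-like cells was at 219 CPM in replicate 1, above the other 3.

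H2-Q4 was lowest in mural-like cells of replicate 4 (30.2 CPM) and in parietal epithelial-like cells of replicate 2 (46.4 CPM), and H2-Ab1 was lowest in immune-like cells of replicate 4 (1271 CPM). The other 5 rested on few UMIs in immune-like cells: H2-Q1 at 67.8 CPM in replicate 3 (1 UMI), Psmb10 at 67.8 CPM in replicate 3 (1 UMI), Tap2 at 161 CPM in replicate 1 (2 UMIs), H2-Q4 at 203 CPM in replicate 3 (3 UMIs) and H2-T23 at 474 CPM in replicate 3 (7 UMIs).

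A further signal came from a name that the choice of genes left out. The class II pseudogene H2-Ea-ps had 35 of its 37 UMIs in immune-like cells, 13, 4, 11 and 7 in replicates 1 to 4. This is 556 CPM, above the 47.7 CPM that 3 UMIs make in these cells.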

How the results depend on the processing

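Of 66 calls of a gene in a cell type, 36 stayed past the threshold in the same direction under every alternative with a fit. Over all alternatives 624 values kept their direction and side of the threshold, 86 kept the direction but missed the threshold, and 8 reversed.

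Of the 7 genes higher in podocyte-like cells, 4 were called by DESeq2, with RLE size factors, with no replicate block, with at least 500 genes per cell and with a mitochondrial limit of 10%, and 11 with no filter on low counts. The 4 lower there became 2 with the 10% limit and 11 against all other cells summed. The 10 higher in endothelial-like cells became 16 with no filter and 4 with the 10% limit, and the 0 lower became 1 with no filter and 6 against all other cells summed. In mural-like cells the 1 higher gene became 0 with 500 genes per cell and with the 10% limit, and the 6 lower became 3 by DESeq2 and with no replicate block. In parietal epithelial-like cells the 4 higher became 2 with no replicate block and 0 against all other cells summed, and the 0 lower became 2 against them. In tubular-like cells the 0 higher became 1 with no filter, and the 10 lower became 4 with the 10% limit and 17 against all other cells summed. Fewer genes had enough UMIs under the stricter cell limits (10 and 7 of the 14) and more with no filter (44). No replicate block moved no other count of calls in the 5 types by over 1.5 times.

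In the endothelial-like subclusters the 2 genes higher among the cells with podocyte markers became 1 by DESeq2 and with no replicate block. Without cells with markers of 2 types, the 366 cells had 4 lower genes in place of 1, and the largest subcluster 0 higher in place of 1. Of the pathway lists, podocyte-like 12 higher became 20 with no filter, and 13 lower became 8 with 500 genes per cell and 4 with the 10% limit. The 10% limit also gave 9 higher in place of 28 in endothelial-like, 4 in place of 7 in mural-like (4 with 500 genes), 3 in place of 5 in parietal epithelial-like, and 1 higher and 4 lower in place of 11 and 18 in tubular-like cells. The 2 lower in parietal epithelial-like cells became 1 by DESeq2, with no replicate block, with 500 genes and without cells with markers of 2 types. The 2 lower genes in bulk became 6 when scaled by totals, where the median of all genes is -0.32, and 5 with at least 10 reads. Thinned to 1000 UMIs, which keeps only cells with at least 1000, 33.8% of podocyte-like cells had B2m and 60.4% of immune-like cells Cd74.

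Reversed folds were H2-D1 in podocyte-like cells (-0.12 with the 10% limit, -0.24 against all other cells summed), H2-K1 there (0.062 with no filter), H2-T23 in endothelial-like cells (-0.20 against all other cells summed), H2-Q7 in parietal epithelial-like cells (-0.36 against them) and in tubular-like cells (0.10 with the 10% limit), H2-Q6 in the subcluster with podocyte markers (1.24, and -0.24 to 1.58 with 1 replicate left out at a time) and B2m in the largest subcluster (-0.11 without cells with markers of 2 types). The cause was not tested.

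Leaving out 1 library at a time gave 4 to 6 genes higher and 3 lower in podocyte-like cells, 10 to 12 higher and 0 to 1 lower in endothelial-like, 0 to 1 higher and 5 to 6 lower in mural-like, 4 to 6 higher and 0 lower in parietal epithelial-like, 0 higher and 8 to 10 lower in tubular-like, and 6 to 9 higher and 0 lower in immune-like cells. In the subclusters the ranges were 1 to 3 higher and 3 to 4 lower (podocyte markers), 0 and 1 (366 cells), 1 and 1 to 3 (largest) and 5 and 0 (arterial markers). For the pathway lists they were 10 to 14 higher and 9 to 13 lower in podocyte-like, 23 to 27 and 6 in endothelial-like, 5 to 7 and 8 to 9 in mural-like, 4 to 6 and 1 to 2 in parietal epithelial-like and 8 to 11 and 13 to 19 in tubular-like cells. The thinned share with B2m ran from 73.1% to 78.4% in endothelial-like and 18.1% to 20.5% in podocyte-like cells, and that with Cd74 from 39.6% to 44.4% in immune-like cells.

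At 75 cells, 3 UMIs in immune-like cells make 47.7 CPM, so genes with few UMIs there cannot be compared. The shorter promoter element and the ratio of each library to the other 3 were chosen after the data were seen.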
